A study of Saccharomyces cerevisiae with 3 samples.

Results

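The 30 genes described here carry out or control the synthesis of ergosterol, the main sterol of yeast membranes. They were chosen by gene symbol as the enzymes of the mevalonate and ergosterol pathways, the electron donors of the pathway, the sterol esterifying enzymes ARE1 and ARE2, and the regulators UPC2, ECM22 and NSG1. All 30 were found among the 5539 genes of the array, each with 2 spots, which makes 60 of the 11138 spots that carry a gene name. The rule that picks them uses gene function and no measured value, although earlier results of these data were known when it was written.

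Total RNA of Saccharomyces cerevisiae was hybridised to 3 arrays of 2 colours, with RNA of a YAP1 mutant (a yap1 deletion, per the series title) in the Cy5 channel and RNA of the wild type in the Cy3 channel of each array. Both strains had been kept in 1.0 mM arsenite, As(III), for 1 h, so every value below is a mutant against a wild type under the same stress, and no unstressed cells were measured. The labels state neither the strain background nor, beyond the deletion named in the series title, how the mutant was made. Every array carried the dyes the same way round, and an effect of dye and an effect of genotype cannot be told apart. The 3 arrays are numbered as replicates, but nothing in the labels says that they came from separate cultures, so that the p-values below speak of array-to-array spread alone, part or all of which may be technical.

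Yap1 is a transcription factor of the bZIP class that enters the nucleus under oxidative stress and in the presence of arsenite, and switches on genes for redox defence and arsenic export. Ergosterol is built from acetyl-CoA by way of mevalonate, farnesyl pyrophosphate, squalene and lanosterol, and several of the later steps use oxygen, haem and NADPH. The pathway is controlled at HMG-CoA reductase, the rate-limiting enzyme of the mevalonate branch, and by the transcription factors Upc2 and Ecm22, which switch on its genes when sterol runs low. Excess sterol is stored as steryl esters made by Are1 and Are2.

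The values are log2 ratios, and mutant over wild type is their likely direction, which rests on how the titles name the strains, on the dyes and on the low YAP1 ratio. A ratio of -1 on this scale stands for a signal 2-fold lower in the mutant. The deposited ratios were not normalized, with medians of -0.52, -0.85 and -0.55 on arrays 1, 2 and 3, and they fell with brightness: the median was -0.08, -0.64 and -0.30 in the dimmest 10% of the spots and -1.11, -1.19 and -1.33 in the brightest 10%. That trend was removed with a loess curve within each array, and the ratios below are the loess-normalized ones. Beside a mean over the 3 arrays, ± gives limma's moderated standard error, which borrows spread from all genes and is not the standard error of the 3 values alone. YAP1 itself had ratios of -0.32, -1.22 and -1.05, a mean of -0.86 ± 0.18, and was called lower in the mutant (limma, adjusted p = 0.0362). The call on YAP1 was lost without array 2 (-0.69, limma, adjusted p = 0.0735), in a fit that gave all genes 1 common standard error, 0.238. Where its probe lies relative to the deleted stretch is not stated in the labels. The YAP1 signal, as recovered from the ratios, did not reach the dimmest level in the mutant: it was 1580, 1100 and 854 units in the mutant channel, 2.82 times the 5th percentile of that channel, against 3763, 5554 and 3968 units in the wild-type channel, 7.53 times its 5th percentile.

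None of the 30 genes was called lower or higher in the mutant at a Benjamini-Hochberg adjusted p under 0.05 (limma's moderated test of the mean ratio against 0, two-sided, over 5539 genes). Over the whole array 142 genes, or 2.56%, were called lower and 28 genes, or 0.506%, were called higher. At an unadjusted p under 0.05 there were 5 of the 30, or 16.7%, against 18.7% of all genes. These 5 were ERG13, ERG8, ERG9, ARE2 and NSG1, and all had a lower ratio in the mutant. Lower was also the more common direction among the 1037 such genes of the whole array, with 633 lower and 404 higher. With 5 genes, no direction of the set can be read from this.

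The 30 means spread narrowly around 0. Their median log2 ratio was -0.04, against -0.01 for all genes, and they ran from -0.72 for ARE2 to 0.33 for ERG24, with 17 below 0 and 13 above it. All but ARE2, 29 of the 30, lay within a 1.5-fold difference either way, as did 5273 of the 5539 genes. The 95% interval of the mean lay wholly within a 2-fold difference for the same number, 29 of 30 or 96.7%, against 96.1% of all genes, and ARE2 was again the exception. On all 3 arrays the ratio was below 0 for 6 of the 30, or 20% (23.7% of all genes), and above 0 for 4, or 13.3% (20.1% of all genes). The shares called, at an unadjusted p under 0.05 and with intervals within 2-fold were thus near those of the whole array.

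**Figure D1:**
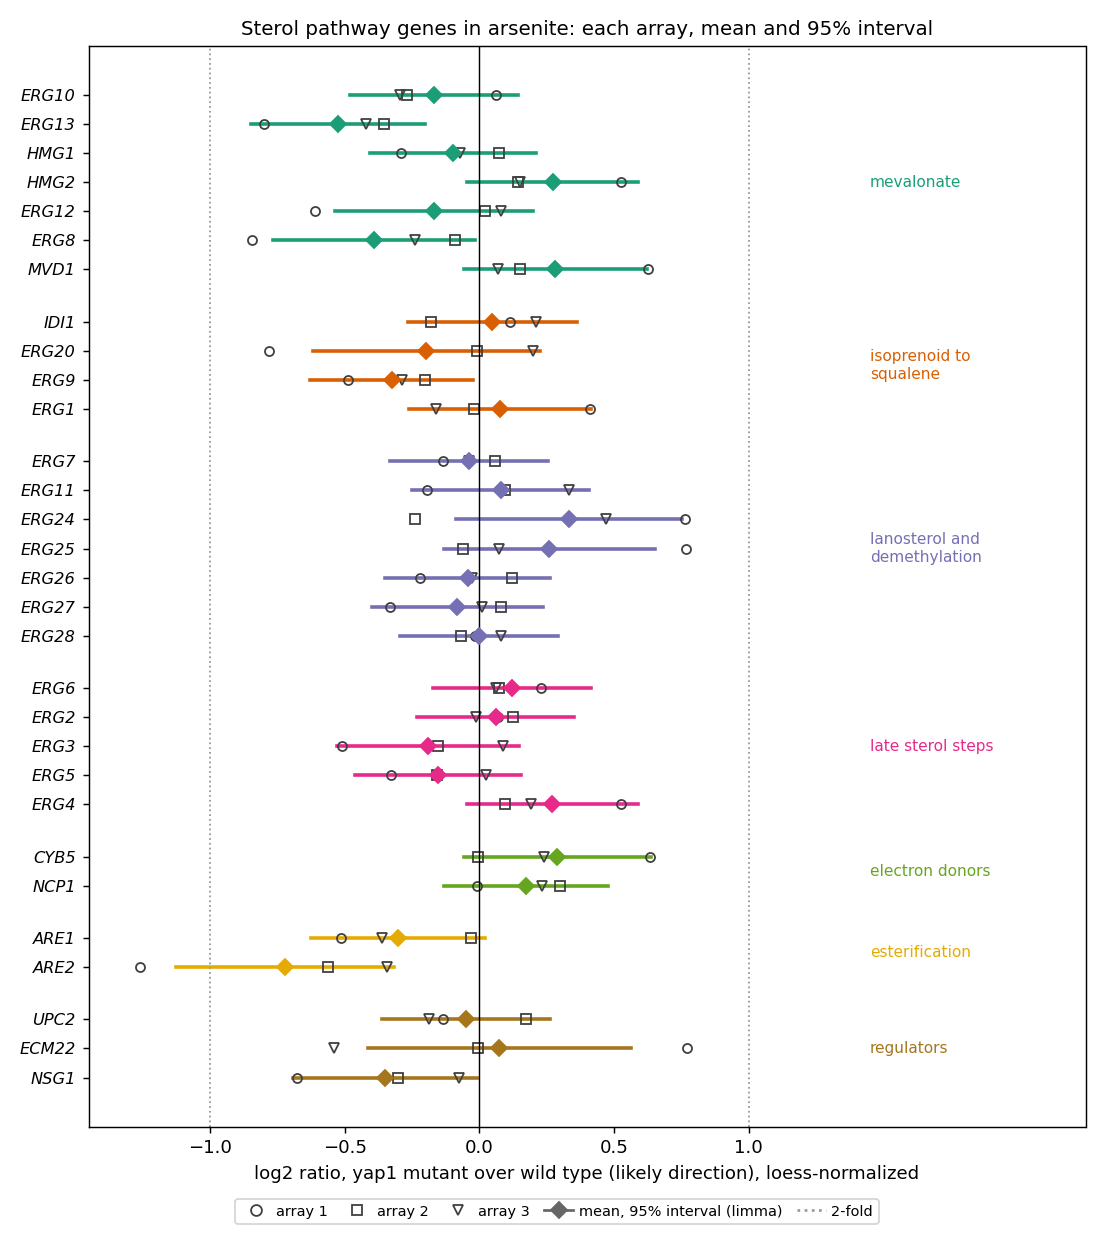
Loess-normalized log2 ratio of each of the 30 sterol genes, in pathway order from top to bottom (x axis, log2 units). Open symbols are the 3 arrays, diamonds are means and bars are limma's 95% intervals; the array 1 circles spread the farthest, and ARE2 is the only gene whose bar passes -1.

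The mevalonate branch has 7 genes, which convert acetyl-CoA into the first isoprenoid, isopentenyl pyrophosphate. Their median was -0.17, with 5 means below 0 and 2 above, and none was called. ERG10 (YPL028W), the acetoacetyl-CoA thiolase that opens the pathway, had ratios of 0.06, -0.27 and -0.30 and a mean of -0.17 ± 0.14, so its arrays straddled 0. ERG13 (YML126C), which encodes HMG-CoA synthase, had ratios of -0.80, -0.35 and -0.42. All 3 were below 0, the mean was -0.52 ± 0.14 with a 95% interval from -0.85 to -0.20, and the test did not pass (limma, adjusted p = 0.0996). It passed when the loess-normalized ratios were quantile-normalized, which gives all 3 arrays the same distribution of ratios (-0.52, limma, adjusted p = 0.0283). The mean hardly moved, and its standard error was 0.115 in place of 0.144.

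The HMG-CoA reductases, on which the branch is controlled, had means on opposite sides of 0, and neither was called. HMG1 (YML075C), the reductase that carries most of the activity in air, had ratios of -0.29, 0.07 and -0.07, a mean of -0.10 ± 0.14 and a 95% interval from -0.41 to 0.21. HMG2 (YLR450W), the isozyme whose stability responds to sterol intermediates, had 0.52, 0.14 and 0.15, all above 0, and a mean of 0.27 ± 0.14 with an interval from -0.04 to 0.59 (limma, adjusted p = 0.333). For both genes a difference of 2-fold lay outside the interval, which no longer held for HMG2 after a normexp background correction (0.50, interval reaching beyond 2-fold).

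Of the kinases that follow, ERG12 (YMR208W), mevalonate kinase, had ratios of -0.61, 0.02 and 0.08. Array 1 alone set the sign of its mean, which was -0.17 ± 0.16 over the 3 arrays and 0.05 without array 1. ERG8 (YMR220W), phosphomevalonate kinase, had -0.84, -0.09 and -0.24, all below 0 but with array 1 far from the others, and a mean of -0.39 ± 0.17 (limma, adjusted p = 0.247). MVD1 (YNR043W), the decarboxylase that yields isopentenyl pyrophosphate, had 0.63, 0.15 and 0.07 and a mean of 0.28 ± 0.15 (adjusted p = 0.347). ERG8 and MVD1 thus stood on opposite sides of 0 on all 3 arrays although they act in consecutive steps, and neither passed the test.

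The 4 genes that lead from isopentenyl pyrophosphate to squalene epoxide had a median of -0.07, and none was called. ERG9 (YHR190W), squalene synthase, the enzyme that commits farnesyl pyrophosphate to sterols, had ratios of -0.49, -0.20 and -0.28. It was the only gene of the 4 below 0 on all 3 arrays, and its mean had a 95% interval from -0.63 to -0.02 (limma, adjusted p = 0.232). IDI1 (YPL117C), the isomerase of isopentenyl pyrophosphate, had a mean of 0.05 ± 0.14, and its spots were dim, at 1.22 times the 5th percentile of the mutant channel and 1.23 times that of the wild-type channel. ERG20 (YJL167W), farnesyl pyrophosphate synthase, had -0.78, -0.01 and 0.20, so that its mean of -0.20 ± 0.19 became 0.10 without array 1. ERG1 (YGR175C), squalene epoxidase, the target of terbinafine, had 0.41, -0.02 and -0.16 and a mean of 0.08 ± 0.15.

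The 7 genes that close the rings of lanosterol and strip its methyl groups had the median nearest to 0, at -0.00, and none of them had 1 sign on all 3 arrays. ERG7 (YHR072W), lanosterol synthase, had a mean of -0.04 ± 0.13. ERG11 (YHR007C), the lanosterol demethylase hit by azole drugs, had ratios of -0.19, 0.10 and 0.33 and a mean of 0.08 ± 0.15, with a 95% interval from -0.25 to 0.41. No difference was detectable for this gene, and a difference of 2-fold in either direction lay outside its interval.

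ERG24 (YNL280C), the sterol reductase that works next after Erg11, had a mean of 0.33 ± 0.19 from ratios of 0.76, -0.24 and 0.47 that differed in sign (limma, adjusted p = 0.372), and without array 1 the mean was 0.12. ERG25 (YGR060W), the methyl oxidase of the demethylation complex, had 0.77, -0.06 and 0.07. Its mean of 0.26 ± 0.17 rested on array 1 and was 0.01 without it. On that array its spots were also far brighter in both channels, at 4648 units in the mutant channel and 5359 in the wild-type channel, than on array 2 (741 and 1320) or array 3 (707 and 938). The rest of the complex lay close to 0: ERG26 (YGL001C), the decarboxylating dehydrogenase, at -0.04 ± 0.14, ERG27 (YLR100W), the keto reductase, at -0.08 ± 0.14, and ERG28 (YER044C), the protein that holds the complex together, at -0.00 ± 0.13.

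The 5 enzymes of the late sterol steps, which turn zymosterol into ergosterol, had a median of 0.06, and none was called. ERG6 (YML008C), the sterol methyltransferase that adds the side-chain methyl group found in fungi, had ratios of 0.23, 0.07 and 0.06, all above 0, with a mean of 0.12 ± 0.13. ERG2 (YMR202W), the sterol isomerase, averaged 0.06 ± 0.13 with arrays on both sides of 0. ERG3 (YLR056W), the desaturase of the sterol ring, had -0.51, -0.15 and 0.09 and a mean of -0.19 ± 0.15. ERG5 (YMR015C), the side-chain desaturase, averaged -0.15 ± 0.14. ERG4 (YGL012W), the reductase of the last step, had 0.53, 0.10 and 0.19, again all above 0, and a mean of 0.27 ± 0.14 (limma, adjusted p = 0.336).

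Both electron donors had means above 0 and neither passed the test. CYB5 (YNL111C), the cytochrome that feeds electrons to the desaturases and the methyl oxidase, had ratios of 0.64, -0.01 and 0.24 and a mean of 0.29 ± 0.15 (limma, adjusted p = 0.345). NCP1 (YHR042W), the NADPH-dependent reductase that serves Erg11 and Erg5 and also squalene epoxidase, had -0.01, 0.30 and 0.23 and a mean of 0.17 ± 0.14 (adjusted p = 0.525).

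The sterol esterifying enzymes held the lowest ratio of the set. ARE2 (YNR019W), the acyltransferase that makes most of the steryl ester in growing cells, had ratios of -1.26, -0.56 and -0.34, all below 0. Its mean was -0.72 ± 0.18 with a 95% interval from -1.13 to -0.32, and it missed the threshold (limma, adjusted p = 0.0743). As recovered from the ratios, ARE2 signals were 944, 1209 and 907 units in the mutant channel, against 4177, 3803 and 2384 units in the wild-type channel. These signals are not normalized, and the mutant channel was the dimmer one for most genes, with medians of 580, 887 and 707 units against 855, 1624 and 1036 units. The mean ratio of ARE2 stood at the 2.30th percentile of all genes. ARE1 (YCR048W), its paralog, had -0.51, -0.03 and -0.36, also all below 0, and a mean of -0.30 ± 0.14 (limma, adjusted p = 0.296).

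Whether ARE2 was called depended on the processing, while its direction was the same under all alternatives tried. It was called lower with quantile normalization (-0.72, adjusted p = 0.0170), without array 2 (-0.80, adjusted p = 0.0236), without array 3 (-0.91, adjusted p = 0.00551) and with the spots kept apart as technical replicates (-0.72, adjusted p = 0.0478), all from limma. Without array 2 and without array 3 the fit gave all genes 1 common standard error, 0.238 and 0.234, whatever the spread of their own values. Without array 1 the mean was -0.45 and the adjusted p was 0.134. A normexp background correction before loess gave a mean of -0.97 with a 95% interval from -1.54 to -0.40, and it was not called (adjusted p = 0.0619). ARE2 was also not called with print-block medians (limma, adjusted p = 0.0758) or with span 0.7 (adjusted p = 0.0587). Nor was it called with the dimmest genes left out (adjusted p = 0.0509) or with signals recovered from each array alone (adjusted p = 0.111). By the ordinary t statistic the adjusted p was 0.560 and the interval ran from -1.91 to 0.47. Median centring called ARE2 lower (-1.09, limma, adjusted p = 3.39e-09), also with 1 common standard error for all genes.

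None of the regulators was called. UPC2 (YDR213W) had ratios of -0.14, 0.17 and -0.19 and a mean of -0.05 ± 0.14. ECM22 (YLR228C), its paralog, had 0.77, -0.01 and -0.54, the widest spread between arrays of all 30, so that the 95% interval of its mean ran from -0.41 to 0.56 (0.07 ± 0.22). NSG1 (YHR133C), an endoplasmic reticulum protein that stabilises Hmg2, had -0.67, -0.30 and -0.07, all below 0, and a mean of -0.35 ± 0.15 (limma, adjusted p = 0.254).

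**Figure D2:**
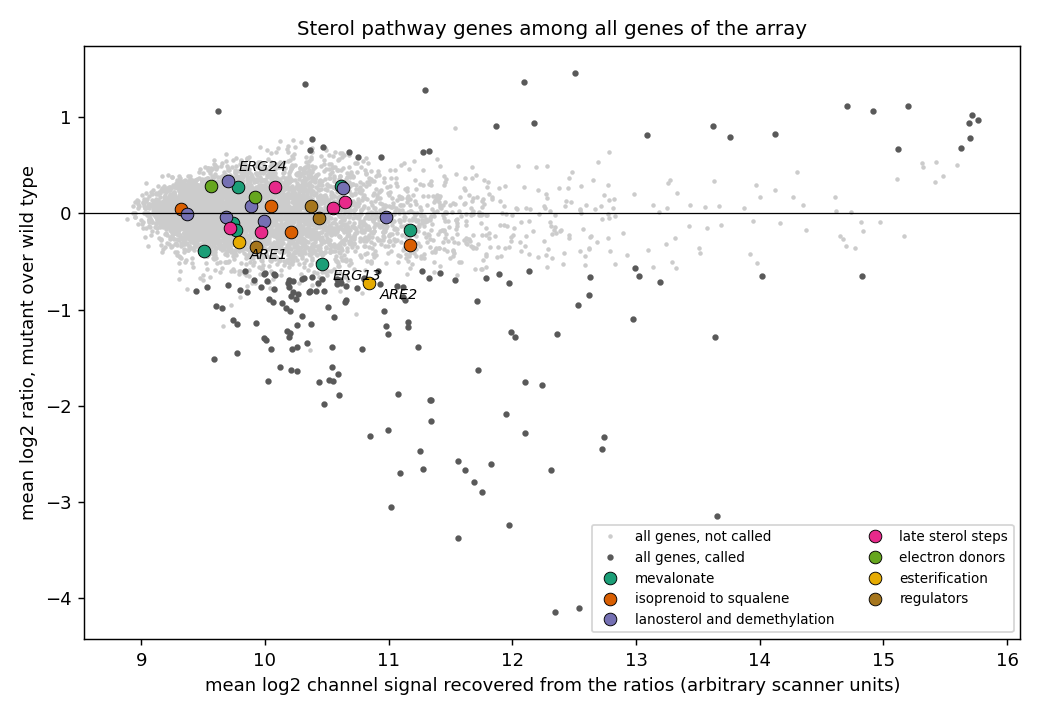
Mean log2 ratio (y axis) against mean log2 channel signal recovered from the ratios (x axis, arbitrary units) for all 5539 genes, with called genes in dark grey and the 30 sterol genes coloured by role. The sterol genes lie in the band of uncalled genes, with ARE2 at -0.72 and ERG13 at -0.52 on its lower edge.

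The arrays did not contribute equally. Among the 30 genes the SD over genes was 0.547 on array 1, 0.185 on array 2 and 0.237 on array 3, and over all genes it was 0.555, 0.303 and 0.359. A log2 ratio of 0.5 or more in size was found for 15 of the 30 genes on array 1 (50% of them, and 31.2% of all genes), for 1 on array 2 (3.33%, against 4.73%) and for 1 on array 3 (3.33%, against 9.86%). The genes at or beyond 0.5 on array 1 lay on both sides of 0, with ARE2, ERG8, ERG13 and ERG20 at the low end and ECM22, ERG25 and ERG24 at the high end. The medians of the 30 were -0.13, -0.01 and 0.02 on the 3 arrays. Over all genes the ratios of arrays 1 and 2 correlated with r = 0.54, those of arrays 1 and 3 with r = 0.53 and those of arrays 2 and 3 with r = 0.67, which describes genes that share libraries and signal range.

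Low signal limits what these ratios can show. Averaged over arrays, the recovered signal of the 30 genes was a median of 1.78 times the 5th percentile of the mutant channel (1.19 to 5.70 times) and 2.32 times that of the wild-type channel (1.23 to 7.32 times). The 5.70 is that of ERG25, whose spots were bright on array 1 alone, and the next highest in the mutant channel was ERG10 at 3.64 times. Under 2 times that level were 19 of the 30 in the mutant channel, against 68.0% of all genes, and 10 of the 30 in the wild-type channel, against 49.1% of all genes. By these counts the sterol genes were no dimmer than the array as a whole. With the normexp correction 21 of the 30 intervals stayed within a 2-fold difference, against 64.7% of all genes, and those of ARE1, ARE2, CYB5, ERG13, ERG20, ERG24, ERG8, HMG2 and NSG1 reached beyond it. No sterol gene was called with that correction either.

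**Figure D3:**
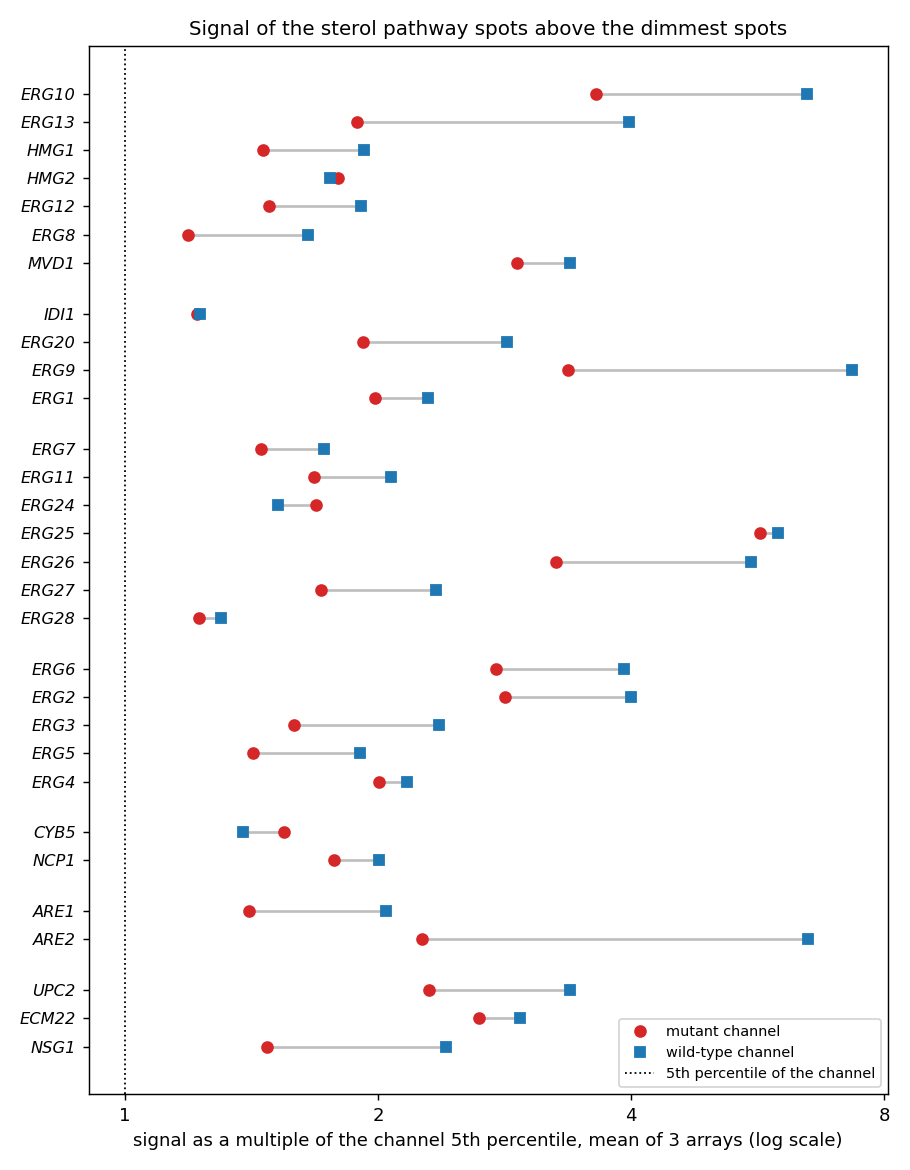
Signal of each sterol gene as a multiple of the 5th percentile of its channel, mean of 3 arrays (x axis, log scale), with the mutant channel as circles and the wild-type channel as squares. ERG8, IDI1 and ERG28 lie nearest to the dotted line at 1 in the mutant channel, and ARE2 shows a wide gap, at 2.26 times in the mutant channel and 6.49 times in the wild-type channel.

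When the deposited ratios were only centred on each array's median, with no loess, 5 of the 30 were called lower and 0 higher, where 984 genes of the array, or 17.8%, were called lower and 237, or 4.28%, higher. These 5 were ARE2 (-1.09), ERG13 (-0.80), ERG9 (-0.77), ERG10 (-0.62) and ERG26 (-0.43). Their mean signals stood between percentiles 79.7 (ERG13) and 92.2 (ERG9) of all genes, so not all were in the brightest 10%. On every array the median deposited ratio was lower in the brightest 10% of the spots than over all spots. What part brightness had in these calls was not tested. ERG9, ERG10 and ERG26 were called under no other processing tried.

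**Figure D4:**
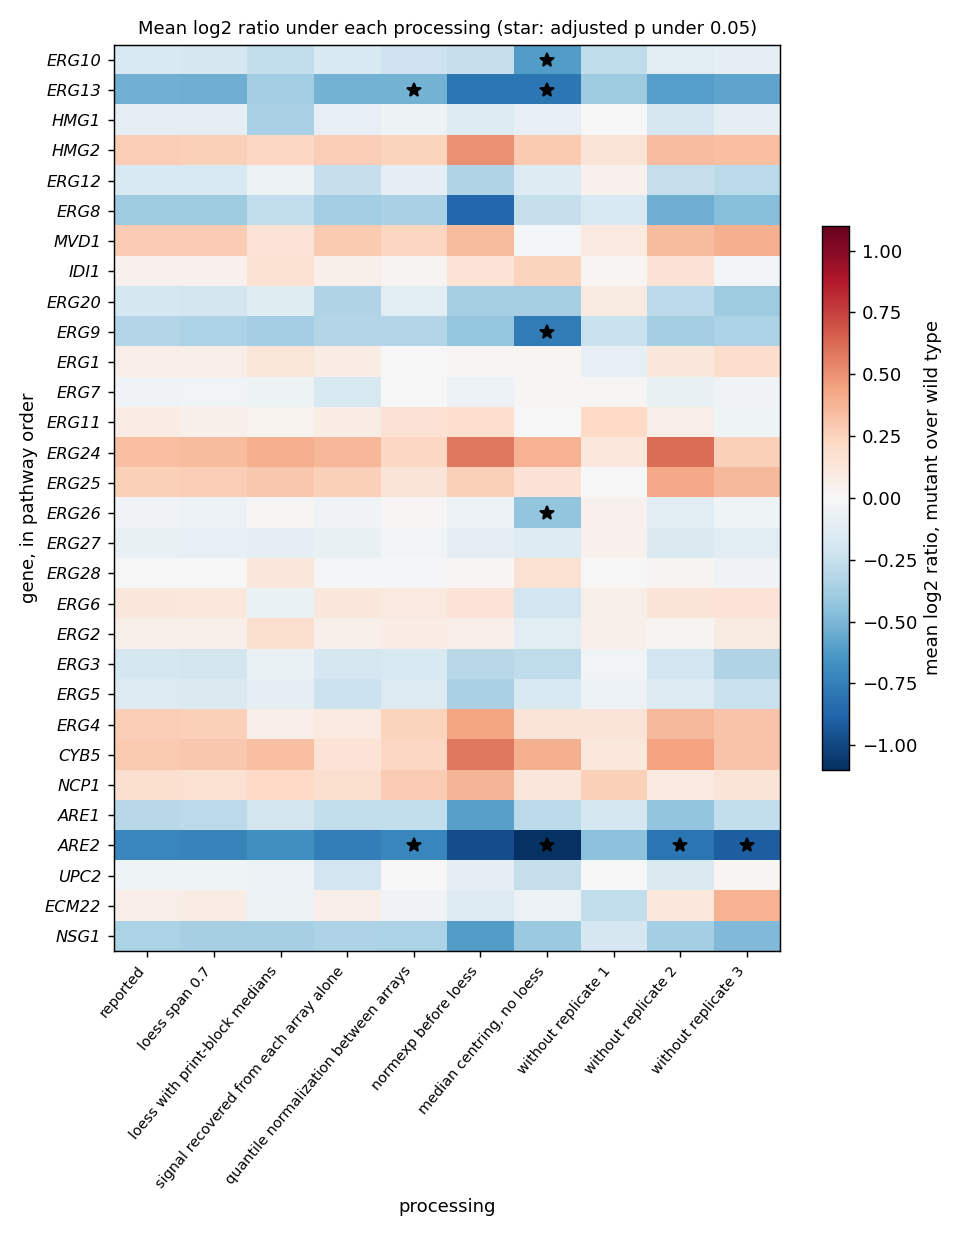
Mean log2 ratio of each sterol gene (rows, in pathway order) as reported and under 9 other processings or without 1 array (columns), with blue for lower and red for higher in the mutant and a star where the adjusted p was under 0.05. All 9 stars are on blue cells, and 5 of them are in the column of median centring without loess.

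Of 9 genes of sterol uptake and the anaerobic cell wall, which Upc2 controls or which act with it, none was called, and their median was 0.21. The 3 of smallest p were all above 0 on every array: PDR11, a sterol importer, at 0.45 ± 0.17 (limma, adjusted p = 0.190), HES1, an oxysterol-binding protein, at 0.27 ± 0.13 (adjusted p = 0.317), and AUS1, the other importer, at 0.23 ± 0.14 (adjusted p = 0.383). With print-block medians subtracted the median of the 9 was 0.10 and HES1 was 0.049. With median centring alone all 3 genes were called higher (PDR11 at 0.53, HES1 at 0.43 and AUS1 at 0.46), as were 4.28% of all genes. The 3 genes were dim, with mean signals at percentiles 28.3 (PDR11), 14.8 (HES1) and 3.75 (AUS1) of all genes. On every array the median deposited ratio was higher in the dimmest 10% of the spots than over all spots. PDR11 and HES1 were not in the dimmest 10% of genes, and what part brightness had in these calls was not tested. Among 16 genes of steryl ester breakdown, sterol acetylation and sterol transport, none was called and the median was -0.13. OSH2, an oxysterol-binding protein of membrane contact sites, had ratios of -0.40, -0.60 and -1.42 and was not called (-0.81 ± 0.19, limma, adjusted p = 0.0598). It was called lower without array 2 (-0.91, adjusted p = 0.00586), but not without array 1 (-1.01, adjusted p = 0.0979) or without array 3 (-0.50, adjusted p = 0.304). The fits without array 2 and without array 3 had 1 standard error for all genes, 0.238 and 0.234. LAM6, a sterol transporter of contact sites, averaged -0.25 ± 0.14 (adjusted p = 0.358), and YEH2, a steryl ester hydrolase, averaged 0.23 ± 0.14 (adjusted p = 0.391).

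The median of 15 genes of the other branches that draw on farnesyl and geranylgeranyl pyrophosphate was -0.07. Of the 15, 1 was called lower in the mutant, against 2.56% of all genes. It was BET4, a subunit of the geranylgeranyl transferase that modifies Rab proteins, with ratios of -1.26, -0.77 and -0.41 and a mean of -0.81 ± 0.17 (limma, adjusted p = 0.0371). Without array 1 the call was lost (-0.59, adjusted p = 0.103). At an unadjusted p under 0.05, 3 of the 15 were lower and 2 higher, against 18.7% of all genes in either direction. The 8 genes of haem synthesis had a median of -0.21, and none was called. Of the 8, 7 had means below 0, as did 2902 of the 5539 genes. On all 3 arrays 5 of the 8 were below 0, against 23.7% of all genes. The 3 of smallest p were HEM15, ferrochelatase (-0.29 ± 0.13, adjusted p = 0.276), HEM1, which opens the haem pathway (-0.24 ± 0.13, adjusted p = 0.370), and HEM12, uroporphyrinogen decarboxylase (-0.22 ± 0.14, adjusted p = 0.417). With normexp the median of the 8 was -0.46. With median centring alone HEM15 was called lower (-0.54), as were 17.8% of all genes. The mean signal of HEM15 stood at percentile 79.6 of all genes, which is short of the brightest 10%. On every array the median deposited ratio was lower in the brightest 10% of the spots than over all spots. What part brightness had in this call was not tested.

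The median of 15 further regulators of HMG-CoA reductase and of sterol genes was -0.09. Of these 15, 1 was called lower in the mutant, against 2.56% of all genes. It was USA1, a scaffold of the Hrd1 ubiquitin ligase that degrades Hmg2, with ratios of -0.66, -0.55 and -0.65 and a mean of -0.62 ± 0.13 (limma, adjusted p = 0.0365). Its call was lost without array 1 (-0.60, adjusted p = 0.0581), without array 2 (-0.66, adjusted p = 0.0977) and without array 3 (-0.60, adjusted p = 0.161), and with its spots, which differed by 0.35 on average, kept apart (adjusted p = 0.295). The mean of USA1 moved little with an array left out. Without array 2 and without array 3 its standard error was the one common to all genes, 0.238 and 0.234.

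Acetyl-CoA is the starting material of the pathway. Of 11 genes of acetyl-CoA supply and of fatty acid synthesis and desaturation, 2 were called lower and none higher, and the median was -0.16. Over all genes 2.56% were called lower and 0.506% higher. ALD4, the main mitochondrial aldehyde dehydrogenase, had ratios of -1.65, -1.62 and -2.35, a mean of -1.88 ± 0.17 (limma, adjusted p = 1.9e-04). ALD6, the cytosolic aldehyde dehydrogenase that makes acetate for acetyl-CoA, had -1.52, -1.24 and -0.99, a mean of -1.25 ± 0.15 (adjusted p = 0.0012). On each array both ratios lay below those of all 30 sterol genes, and both genes were called lower without any 1 of the arrays.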

How the data were processed

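Total RNA of a YAP1 mutant (Cy5) and of the wild type (Cy3), both in arsenite, was compared on 3 arrays of 13056 spots, with 0 missing values. The authors deposited 1 log2 ratio for each spot. What scanner they used, and how they treated background and scale, is not given in the sources used here. Taken as powers of 2, 100% of the deposited values were fractions of whole numbers (relative tolerance 1e-13), against at most 0.207% as powers of e or 10. No label gives the ratio's direction, so all directions are likely ones. Arrays carry no read depth, and their number and the signal over background limit the precision.

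Gene names came from the platform annotation: 11138 spots had 1 gene, 1918 had none and 0 had several, and 5534 of the 5539 genes were found in RefSeq genes of assembly R64, which served for names only. Probe coordinates and sequences were not used here.

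The signal of each channel follows from such a fraction except for a common factor. That factor was chosen by the agreement of duplicate spots and of the other arrays. In data simulated from the recovered signals, the factor was found exactly for 82.3%, 87.4% and 89.1% of the spots on arrays 1, 2 and 3. It came within 0.5 log2 units for 89.1%, 93.5% and 95.4%. That simulation starts from the recovered signals, so it cannot show that they are right, and all signal units here are estimates. Loess (span 0.3) of ratio on mean log2 signal was subtracted within each array, and spots of a gene were averaged. limma 3.58.1 in R 4.3.3 tested each gene's mean against 0 (two-sided, 9.51 degrees of freedom in all), with Benjamini-Hochberg adjustment over 5539 genes and calls at an adjusted p under 0.05. Python 3.11.15 with numpy 2.4.6, matplotlib 3.10.9 and pandas 2.3.3 served for tables and figures.

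Alternatives were median centring, subtraction of print-block medians (48 blocks of 272 spots, inferred from spot order), normexp (offset 50), quantile normalization, span 0.7, each array left out, the ordinary t statistic of the same fit, spots kept apart (duplicateCorrelation), the dimmest 25% of genes left out, and adjusted p under 0.01 or 0.10. Quantile normalization was applied to the loess-normalized ratios, not to the signals, and makes their distribution the same on all arrays. Recovery of signals from each array alone was added after seeing the data. The 30 genes, the 6 neighbouring lists and the rule for naming genes (all 30, YAP1, and from each list every called gene or else the 3 of smallest p) were chosen with earlier results of these data known. No set test was run, and lists are described by counts and medians. No batch is given in the labels.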

Additional observations from a re-analysis of the deposited data

How the results depend on the processing

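No sterol gene was called higher under any alternative tried. Called lower were 5 with median centring, which gave all genes 1 common standard error of 0.167, 2 with quantile normalization, 1 with spots kept apart, 2 at an adjusted p under 0.10, and 0 to 1 with an array left out; ARE2 was among them each time. A count of 270 ratios of the 30 genes left out the ordinary t statistic, spots kept apart, the dimmest 25% of genes left out and the other thresholds. Of these 270 ratios, 232 kept direction and side of the threshold, 9 came to pass it and 29, all of uncalled genes, changed sign. The counts for all genes were 142 lower and 28 higher as reported, 984 and 237 with median centring, 276 and 126 with quantile normalization, 81 and 15 with signals recovered from each array alone, 66 and 11 at an adjusted p under 0.01, and 0 and 0 with the ordinary t statistic, by which 499 genes had an unadjusted p under 0.05. The numbers lower and higher were 109 and 17 with print-block medians, 180 and 50 of 5510 genes with spots kept apart, and 209 and 62 at an adjusted p under 0.10. With an array left out the numbers ran from 87 (without array 1) to 170 lower and from 26 to 69 (without array 2) higher. Without array 2 and without array 3 all genes also shared 1 standard error, 0.238 and 0.234, so calls gained or lost there do not rest on a gene's own spread. The median of the 30 was -0.13 with median centring and -0.10 to 0.01 with an array left out. Their intervals within 2-fold numbered 19 with the ordinary t statistic, 26 to 30 with an array left out, and 21 to 29 under the other alternatives, with 27 of the 30 tested once the dimmest 25% of genes were left out.

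Signs changed with median centring for MVD1 (-0.017), ERG7 (0.014), ERG11 (-0.0063), ERG28 (0.17), ERG6 (-0.21), ERG2 (-0.12) and ECM22 (-0.066); with print-block medians for ERG26 (0.012), ERG28 (0.12), ERG6 (-0.075) and ECM22 (-0.056); with normexp for ERG28 (0.026) and ECM22 (-0.15); and with quantile normalization for ERG26 (0.0092), UPC2 (0.0030) and ECM22 (-0.042). With an array left out, means changed sign for HMG1 (-0.18 to 0.0009), ERG12 (-0.29 to 0.050), IDI1 (-0.033 to 0.16), ERG20 (-0.39 to 0.095), ERG1 (-0.090 to 0.20), ERG7 (-0.085 to 0.011), ERG11 (-0.048 to 0.21), ERG26 (-0.12 to 0.048), ERG27 (-0.16 to 0.045), ERG28 (-0.041 to 0.033), UPC2 (-0.16 to 0.019) and ECM22 (-0.27 to 0.38). With signals recovered from each array alone, YAP1 (-0.86), BET4 (-0.81) and USA1 (-0.62) kept their direction and lost their calls. With spots kept apart the adjusted p of YAP1 was 0.195. With normexp BET4 was -1.31, USA1 -1.34, ALD4 -2.85 and ALD6 -2.05, all called. OSH2 was called lower with quantile normalization (-0.90), with median centring (-0.93) and with the dimmest 25% of genes left out. Medians of neighbouring lists also moved: for the other prenyl branches to 0.054 with median centring and -0.17 with normexp, and for the further regulators to -0.31 with normexp and -0.22 without array 2. The cause of these changes was not tested. Each array compares the strains directly, so the test of the 1 group of ratios against 0 already pairs the strains by array.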

Other observations

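Beyond the genes named by the rule, DAP1, COQ1, CDC43 and COX10 were chosen after their values were seen. The fits with median centring, without array 2 and without array 3 gave all genes 1 common standard error. DAP1, a haem-binding protein that supports Erg11, had log2 ratios of 1.26, 0.21 and 0.78, all above 0, with a mean of 0.75 ± 0.19 (± limma's moderated standard error), and it was not called (limma, adjusted p = 0.0750). It was called higher in the mutant with normexp (1.40, adjusted p = 0.0269), with quantile normalization (0.77, adjusted p = 0.0161), without array 2 (1.02, adjusted p = 0.00101), with median centring (0.70, adjusted p = 3.43e-04), with spots kept apart (0.75, adjusted p = 0.0458) and with the dimmest 25% of genes left out (0.75, adjusted p = 0.0498), and its adjusted p was 0.198 without array 1. DAP1 was also not called with print-block medians (limma, adjusted p = 0.141) or with signals recovered from each array alone (adjusted p = 0.136). The same held with span 0.7 (adjusted p = 0.0618), without array 3 (adjusted p = 0.0528) and with the ordinary t statistic (adjusted p = 0.560). Beside DAP1, ERG11 averaged 0.08 ± 0.15 and NCP1 averaged 0.17 ± 0.14. COQ1, which makes the isoprenoid tail of ubiquinone, had ratios of -0.81, -0.31 and -0.68, all below 0, and a mean of -0.60 ± 0.15 that was not called (adjusted p = 0.0660). COQ1 was called lower with normexp (-1.34, adjusted p = 0.0112), with quantile normalization (-0.59, adjusted p = 0.0195), with median centring (-0.57, adjusted p = 0.00545), with spots kept apart (-0.60, adjusted p = 0.0222) and without array 2 (-0.75, adjusted p = 0.0412), and its adjusted p was 0.214 without array 3. COQ1 was also not called without array 1 (limma, adjusted p = 0.148), with print-block medians (adjusted p = 0.173) or with signals recovered from each array alone (adjusted p = 0.109). The same held with span 0.7 (adjusted p = 0.0599), with the dimmest 25% of genes left out (adjusted p = 0.0575) and with the ordinary t statistic (adjusted p = 0.555). From the same list as COQ1, CDC43 averaged 0.64 ± 0.17 (limma, adjusted p = 0.0989) and COX10 averaged 0.60 ± 0.18 (adjusted p = 0.120). Both were above 0 on all 3 arrays, and neither was called.

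The recovered channel signals of ERG25 on array 1, 4648 units in the mutant channel and 5359 in the wild-type channel, are values that stand apart from those of the other arrays.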
